A study of Homo sapiens with 4 samples.

Results

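The genes of chromosome 4 are described here along the chromosome, in RNA of MDA-MB-231 cells, an established human line of mesenchymal, triple-negative breast cancer cells. Members were the rows of the deposited count tables that lie wholly on chromosome 4 and reach 40 or more raw counts summed over the 4 libraries. This gave 643 members of the 61471 rows in each table, out of 2691 rows on chromosome 4. The description sets the stretch from 40 to 80 Mb, with 126 members, beside the rest of the chromosome, with 517. A member's position is its midpoint in the tables' coordinates, which are those of the genome build GRCh38. The interval was proposed with the difference between EGFP negative and EGFP positive libraries already known. The difference between interval and rest is therefore given as a description with no test, and the calls of single genes support nothing about the interval.

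The study asked, by its title, about polyploid MDA-MB-231 cells and extravasation, the passage of tumour cells out of blood vessels. All 4 libraries are labelled wild type and carry the same pair of reporters, EGFP (a green fluorescent protein) fused to histone H2B, and RFP, which is red, driven by the CMV promoter. The EGFP positive group (libraries 1 and 2) is labelled as having no increased extravasation, and the EGFP negative group (libraries 1 and 2) as having it. No drug, time or dose sets the groups apart in the labels, and how EGFP positive and negative cells were obtained is not given in the sources used here. The cells were grown in DMEM with fetal bovine serum, and polyA-selected RNA was sequenced from stranded libraries. Nothing in the labels tells if libraries 1 and 2 were cultured separately. All p-values here thus reflect no more than the spread among 4 libraries, and this spread could be technical.

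As background, the middle of chromosome 4 holds the centromere, wide stretches with few genes, and several clusters of related genes. These include GABA-A receptor subunits on the short arm, the receptor kinases PDGFRA, KIT and KDR, the UGT2B, casein and albumin clusters, the CXC chemokines around CXCL8, and the EGF-like growth factors amphiregulin (AREG), epiregulin (EREG) and betacellulin (BTC). CXC chemokines bind receptors of neutrophils and other cells, and the EGF-like factors activate the EGF receptor after being cut from the cell surface. In between lie genes that every cell uses, such as POLR2B, a core subunit of RNA polymerase II. The RNA level of a gene depends on its regulators, on chromatin and on the number of gene copies. DNA was not analysed here, and the part of any of these in the values below was not tested.

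Sequences are shown for members of the interval whose levels are given gene by gene below. The first 3 are the 250 bases before the RefSeq start of CXCL8, AREG and EREG, neighbours on the long arm of which CXCL8 and AREG fell and EREG rose. They come from the RefSeq promoter table on GRCh38.p14, plus strand, at chr4:73740319-73740568, chr4:74444886-74445135 and chr4:74364895-74365144. Capitals mark matches to 4 motifs searched on both strands: TATAAA (the TATA box), TGANTCA (the AP-1 site), TGACGTCA (the cyclic AMP response element, CRE) and GGAATTTCC (the form of the NF-kB site printed for CXCL8). No 2 of these motifs overlapped in the sequences shown. The last 28 bases of the CXCL8 window lie in the first exon that the deposited tables give for this gene.
CXCL8: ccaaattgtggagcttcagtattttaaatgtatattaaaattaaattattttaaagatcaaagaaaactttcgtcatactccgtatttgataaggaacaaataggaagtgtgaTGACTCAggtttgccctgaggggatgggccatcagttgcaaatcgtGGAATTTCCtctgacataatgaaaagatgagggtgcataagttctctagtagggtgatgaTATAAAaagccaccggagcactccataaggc
AREG: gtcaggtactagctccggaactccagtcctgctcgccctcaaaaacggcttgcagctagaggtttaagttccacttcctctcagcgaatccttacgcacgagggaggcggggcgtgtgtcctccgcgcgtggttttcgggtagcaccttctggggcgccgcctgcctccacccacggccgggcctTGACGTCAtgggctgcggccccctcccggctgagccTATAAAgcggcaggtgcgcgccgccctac
EREG: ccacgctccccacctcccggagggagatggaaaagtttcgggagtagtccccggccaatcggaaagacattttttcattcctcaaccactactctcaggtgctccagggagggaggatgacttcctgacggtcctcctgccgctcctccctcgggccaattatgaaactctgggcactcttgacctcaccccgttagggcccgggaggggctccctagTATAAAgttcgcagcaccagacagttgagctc

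All 3 windows hold a TATA box close to the start. The CXCL8 window holds in addition 1 AP-1 site and 1 NF-kB site and is 37.6% G and C. The AREG window holds 1 CRE and is 65.2% G and C. The EREG window holds none of the other 3 motifs and is 58% G and C. Over all 27305 genes with an entry in that table, 11.1% of windows of the same length hold TATAAA, 6.6% TGANTCA, 1.77% TGACGTCA and 0.428% GGAATTTCC. A match is a string of letters, not a site shown to be used.

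The next sequences are the stretches between the starts of 3 pairs of interval members that lie head to head, so that both genes are read outward from the same short stretch. They are shown because both genes of each pair were lower in the EGFP negative libraries. The coordinates on GRCh38.p14, written on the plus strand, are chr4:48016682-48016771 for CNGA1 and NIPAL1, chr4:56435616-56435740 for PPAT and PAICS, and chr4:56977607-56977741 for NOA1 and POLR2B.
CNGA1-NIPAL1: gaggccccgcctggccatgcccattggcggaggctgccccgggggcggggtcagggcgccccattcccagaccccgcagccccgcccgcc
PPAT-PAICS: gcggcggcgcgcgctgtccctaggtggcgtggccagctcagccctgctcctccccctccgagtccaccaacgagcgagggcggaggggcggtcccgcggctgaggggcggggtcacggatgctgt
NOA1-POLR2B: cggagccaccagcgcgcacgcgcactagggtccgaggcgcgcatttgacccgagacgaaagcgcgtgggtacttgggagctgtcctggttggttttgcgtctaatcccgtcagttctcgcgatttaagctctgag

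These stretches are 90, 125 and 135 bases long, 81.1%, 76% and 60.7% G and C, and hold 8, 15 and 16 CG dinucleotides. None of the 4 motifs occurs in them, which says only that those letters are not in these stretches.

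The libraries held 11445076 to 12635576 counts assigned to genes. Levels are given as CPM, counts relative to library size after scaling by edgeR's TMM factors, and 3 counts correspond to 0.241 to 0.26 CPM. Markers of the labelled line were high (VIM, CD44, AXL, CAV1 and LGALS1 summed to 7.97e+03 and 7.86e+03 CPM in EGFP positive and 1e+04 and 9.35e+03 CPM in EGFP negative libraries), and CDH1, ESR1 and PGR had 0 to 3 counts in any library. The summed line markers did not move together, and VIM was the largest part of each sum. VIM (0.47), CAV1 (0.32) and LGALS1 (0.64) rose, CD44 fell (-0.43, adjusted p = 0.00083) and AXL was not called (-0.06, adjusted p = 0.62). Of 5 endothelial markers CDH5 was at 0 in all libraries, and the 5 summed to 11.9 to 14.4 CPM, most of it KDR. PECAM1 of that list had 0.779 and 0.781 against 3.13 and 3.69 CPM and rose (2.11, adjusted p = 0.0015), while KDR was not called (-0.51). Fibroblast markers summed to 18.8 to 28.8 CPM with DCN at 0, and COL1A1 made up most of this sum. COL1A1 had 23.5 and 21.3 against 22.4 and 13.9 CPM and was not called (-0.30, adjusted p = 0.3). PDGFRB of that list rose from 3.2 and 1.82 to 5.86 and 4.46 CPM (1.04, adjusted p = 0.033). The call of PDGFRB was lost with EGFP positive library 2 left out (0.69), or with EGFP negative library 1 left out (0.82). The part of these cell types in the results was not tested.

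Of the 643 members 461 are protein-coding genes, 109 are pseudogenes and 73 are of another type or without a type in the tables used. The summed counts of a member ranged from 40 to 44974 with a median of 951. All but FAM218A (9, 15, 8 and 8 counts) entered edgeR's quasi-likelihood test, which was fitted over 16413 genes. Just inside the threshold of 40 counts was also ENSG00000249863 (11, 9, 8 and 12 counts), and just outside it were RCC2P8 (39 summed counts) and ENSG00000246090 (38). A gene is called higher or lower below where its adjusted p is under 0.05, and a log2 fold change is that of EGFP negative over EGFP positive with its standard error (SE).

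Members between 40 and 80 Mb were mostly lower in the EGFP negative libraries, by amounts that varied among members. Their median log2 fold change was -0.36 (0.778-fold), with quartiles of -0.58 and -0.05, over 126 members. Of these, 101 (80.2%) lay below 0. In the rest of the chromosome the median was -0.06 (0.958-fold), with quartiles of -0.28 and 0.15, and 299 of 516 tested members (57.9%) lay below 0. Tested genes of all other chromosomes had a median of 0.00. In the interval 49 members were called lower and 7 higher, where 9.46% of all tested genes were called lower and 9.4% higher. In the rest of the chromosome 67 were called lower and 47 higher. The EGFP positive and EGFP negative libraries did not overlap, with the EGFP negative ones lower, for 78 interval members, where 29.3% of all tested genes had that order. The groups were apart in all 49 lower and 7 higher calls of the interval, and in all 67 and 47 of the rest. A lack of overlap given below for a called gene is therefore no further support. Without EGFP positive library 1 or 2 the interval median was -0.34 or -0.37 and that of the rest -0.07 or -0.04. Without EGFP negative library 1 or 2 the interval median was -0.31 or -0.41 and that of the rest -0.04 or -0.09. Fewer members were called without an EGFP positive library, and so were fewer of all tested genes. More members of the rest were called without an EGFP negative library, and so were more of all tested genes.

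**Figure D1:**
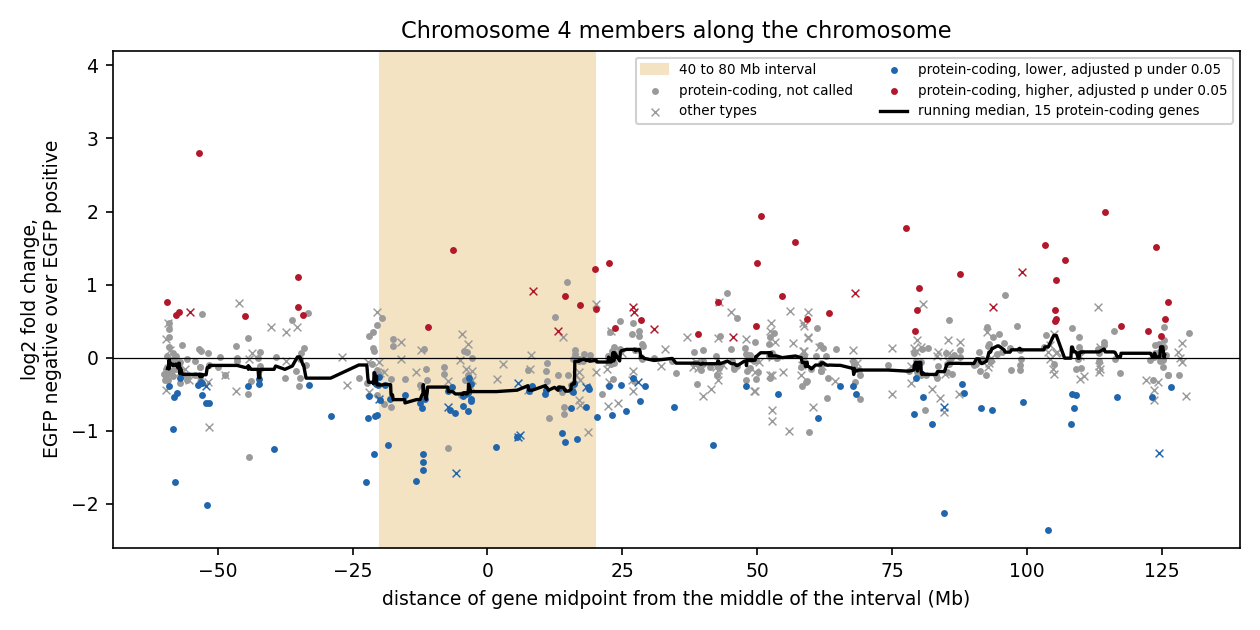
Each point is a tested member of chromosome 4, placed by the distance of its midpoint from the middle of the interval in Mb (x axis) and by its log2 fold change of EGFP negative over EGFP positive (y axis). Circles are protein-coding genes, crosses other types, colours mark calls at an adjusted p under 0.05, and shading marks 40 to 80 Mb. The black line is the median of 15 neighbouring protein-coding genes. In the shaded stretch it lies between -0.62 and -0.35 up to 76.13 Mb, and it is nearer 0 from 76.20 Mb on and to the right of the shading.

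The lower medians began left of the interval, and over all members they were nearly level inside it. In windows of 10 Mb the median of all members was -0.15, -0.08 and 0.01 from 0 to 30 Mb and -0.31 from 30 to 40 Mb. It was then -0.37, -0.38, -0.36 and -0.35 in the 4 windows of the interval, with 31, 34, 14 and 47 members. From 80 Mb to the end the 11 windows had medians between -0.11 and 0.08, beginning with -0.01 from 80 to 90 Mb. Over protein-coding members alone the interval was less level. Its 4 windows then had medians of -0.54, -0.47, -0.46 and -0.36, from left to right, with 24, 24, 5 and 38 members.

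Protein-coding genes placed both sides more closely. Of 91 protein-coding members in the interval, with a median of -0.40 (0.757-fold), 43 were called lower and 5 higher, where 11.4% of all tested protein-coding genes were called lower and 11.5% higher. With 1 library left out in turn, 25 to 54 were called lower. Left of the interval, the 20 protein-coding members from 35 to 40 Mb had a median of -0.31 and 9 were called lower and 0 higher. With 1 library left out in turn, 6 to 10 of these 20 were called lower. The 101 from 0 to 35 Mb had a median of -0.14, with 19 lower (7 to 31 with 1 library left out) and 8 higher. The limit at 40 Mb cuts through a stretch of lower genes. On the right, the 12 protein-coding members from 75 to 77 Mb had a median of -0.37, with 6 lower (4 to 6 with 1 library left out) and 0 higher. The 9 from 77 to 80 Mb had a median of -0.04, with 3 lower (1 to 3) and 2 higher, and those called lower were FRAS1, ANXA3 and BMP2K. The 22 from 80 to 85 Mb had a median of -0.02, with 4 lower (2 to 6) and 3 higher.

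A running median of 15 neighbouring protein-coding genes, taken from the same values, had a similar extent. Of 446 such windows on chromosome 4, 89 (20%) had a median under -0.3, and they were centred between 37.96 and 76.13 Mb. Of the 91 windows centred in the interval 78 were under that value. Left of the interval the windows centred from 39.00 to 39.46 Mb were above -0.3, with medians from -0.26 to -0.21. The window centred at 37.96 Mb ran from 26.67 to 39.09 Mb, so its centre does not place the left side. The lowest median, -0.62, was centred at 44.71 Mb and ran from LIMCH1 to TXK. Only on chromosome 18 (21.6%) was the share of such windows larger, chromosome X had 15.1%, and the other chromosomes from 1 to 22 had at most 3.44%.

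The lower medians lay on both sides of the centromere. In the stretch from 40 to 49 Mb on the short arm, the 24 protein-coding members had a median of -0.54 with 12 lower (7 to 15 with 1 library left out) and 1 higher. Between OCIAD2 and DCUN1D4 lies a gap of 2.94 Mb without a member, which holds the centromere. The 24 members from 51 to 58 Mb on the long arm had a median of -0.47 with 13 lower (7 to 18) and 1 higher. The stretch from 58 to 70 Mb holds 5 protein-coding members and the other wide gaps of the interval, 4.09 Mb before ADGRL3 and 2.5 Mb before EPHA5. The median of these 5 was -0.46 and 4 were lower (2 to 4). The 17 members from 70 to 75 Mb had a median of -0.41, with 5 lower (3 to 8) and 1 higher.

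The genes at the limits varied among themselves. Just left of 40 Mb were PDS5A (-0.26), ENSG00000250568 (-0.06) and the pseudogene PABPC1P1 (-0.57), of which PDS5A and PABPC1P1 were called with adjusted p of 0.046 each. Without EGFP positive library 2 these adjusted p were 0.36 and 0.64, and PDS5A also lost its call without EGFP positive library 1 (0.36). Just right of it were the pseudogene KRT18P25 (-0.21), N4BP2 (-0.58) and RBM47 (0.55), and of these N4BP2 alone was called. N4BP2 lost its call without EGFP positive library 1 (adjusted p = 0.061) or 2 (0.16), and RBM47 was called without EGFP negative library 2 (0.66, adjusted p = 0.043). ENSG00000250568 was called lower without EGFP negative library 1 (-0.59, adjusted p = 3.5e-05) and higher without EGFP negative library 2 (0.33, adjusted p = 0.012). Just left of 80 Mb were BMP2K (-0.43), PAQR3 (0.04) and ANTXR2 (1.21), and just right the pseudogenes KPNA2P1 (-0.19) and RPSAP39 (0.73) and the gene PRDM8 (0.67). Of these BMP2K fell, ANTXR2 and PRDM8 rose and the others were not called. BMP2K, which shares exon bases with PAQR3, lost its call without EGFP positive library 1 (adjusted p = 0.069) or 2 (0.11). KPNA2P1 was called lower without EGFP negative library 2 (-0.45, adjusted p = 0.042).

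Each EGFP negative library showed the lower values against each EGFP positive library. Over the 126 interval members, EGFP negative library 1 had a median of -0.42 against the mean log2 CPM of the EGFP positive libraries, and EGFP negative library 2 had -0.30. The mean of the EGFP negative libraries had a median of -0.37 against EGFP positive library 1 and -0.36 against EGFP positive library 2. The same 4 values over the rest of the chromosome were -0.09, -0.03, -0.05 and -0.08. Within groups the interval did not stand apart from the rest. EGFP positive library 2 over 1 had a median of 0.02 in both parts, and EGFP negative library 2 over 1 had 0.06 in both. Over all tested genes these medians were -0.00 and 0.00, so both parts of the chromosome lay slightly higher. The within-group differences are the measure that the choice of the interval did not use.

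**Figure D2:**
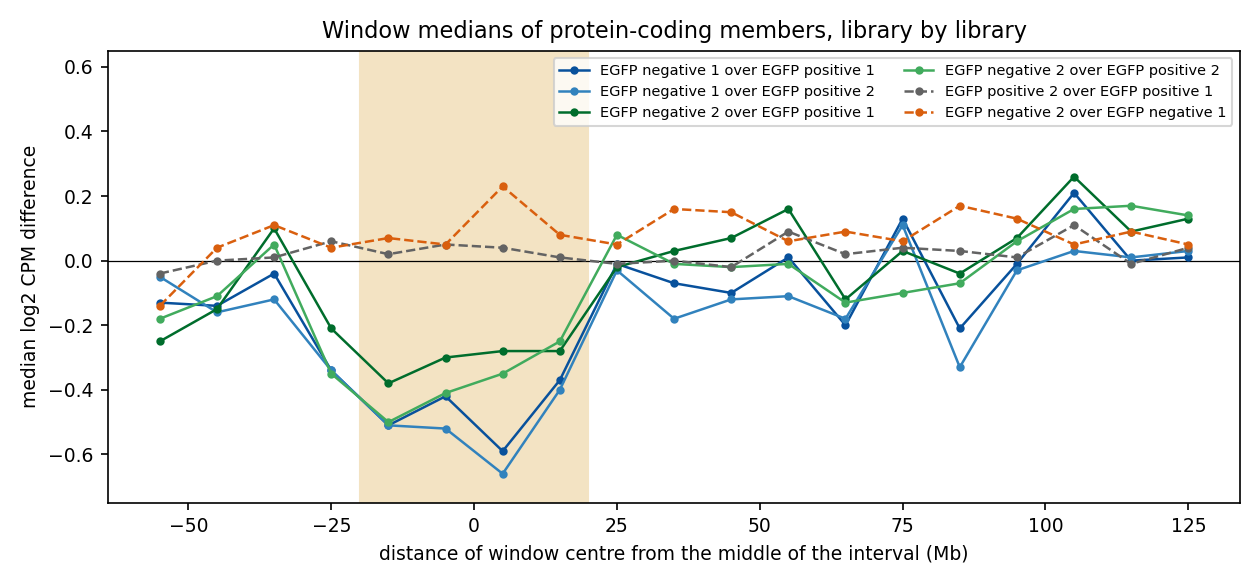
Each line gives, for windows of 10 Mb placed by the distance of their centre from the middle of the interval in Mb (x axis), the median difference in log2 CPM between 2 libraries over the protein-coding members (y axis). The 4 solid lines set an EGFP negative against an EGFP positive library and lie between -0.66 and -0.25 in the shaded 40 to 80 Mb, and the 2 dashed lines set libraries of the same group against each other and lie between 0.01 and 0.23 there.

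By windows of protein-coding members, the 4 pairings of an EGFP negative with an EGFP positive library gave medians from -0.66 to -0.25 in the interval. Outside it, over 14 windows, they gave -0.33 to 0.26 when the window from 30 to 40 Mb was left aside, and -0.35 to -0.21 in that window. Over all 4 pairings the ranges of the interval and of the other windows overlapped. Within each pairing the highest interval window was below the lowest of those 14 windows. With the window from 30 to 40 Mb counted in, this no longer held for EGFP negative library 2 over EGFP positive library 2. There that window had -0.35 and the highest interval window -0.25. The pairings share libraries and repeat the contrast from which the interval was proposed, so their order is a description only. The library pairs of the same group differed most in the window from 60 to 70 Mb with 5 protein-coding members, by 0.23 between the EGFP negative libraries.

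The share of all counts that fell on interval members was 0.7527% and 0.7722% in EGFP positive libraries 1 and 2, and 0.6149% and 0.6543% in EGFP negative libraries 1 and 2. The exact 95% Clopper-Pearson intervals were 0.7477 to 0.7577, 0.7672 to 0.7773, 0.6106 to 0.6192 and 0.6497 to 0.659%, and they cover counting error only. Both EGFP negative libraries lay under both EGFP positive ones. Members of the rest of the chromosome took 2.625% and 2.674% against 2.409% and 2.501%, in the same order of libraries. There too both EGFP negative libraries lay under both EGFP positive ones.

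The interval's protein-coding genes had a lower median than its pseudogenes, a difference that was not tested. Of the 20 pseudogenes of the interval 4 were called lower (0 to 6 with 1 library left out) and 2 higher. Among all tested pseudogenes 3.61% were called lower and 3.08% higher. The interval pseudogenes had a median of -0.18. With 1 library left out this median was -0.21 to 0.02, so its direction is not settled. The protein-coding median was then -0.43 to -0.33. The 15 members of other or unmatched type had -0.32, with 2 lower and 0 higher. Among all tested genes of these types 4.52% were called lower and 4.18% higher. Outside the interval the medians were -0.06 for each of the 3 kinds. Reads of a processed pseudogene can come from the gene it copies, which can lie on another chromosome. For 19 interval pseudogenes that gene was also tested, and the medians were -0.19 for the pseudogenes and 0.04 for the genes they are named for. For 75 such pairs in the rest of the chromosome they were -0.00 and 0.05.

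**Figure D3:**
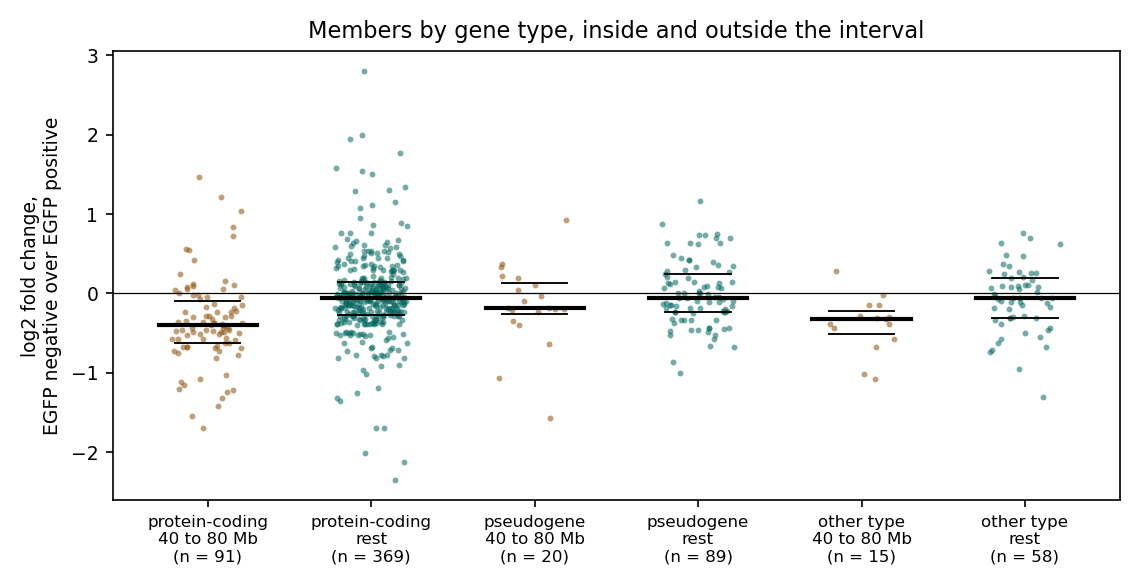
Each point is a tested member of chromosome 4 and its log2 fold change of EGFP negative over EGFP positive (y axis), by gene type and place (x axis), spread sideways only for legibility. Thick lines are medians and thin lines quartiles, and the protein-coding genes of 40 to 80 Mb have the lowest median, -0.40, against -0.06 in the rest.

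The lower values were spread over many genes, and the size of the change varied. Of the 91 protein-coding interval members 52 (57.1%) had log2 fold changes between -0.8 and -0.2, against 28.5% in the rest of the chromosome and 21.4% of all tested protein-coding genes. A further 11 (12.1%) were under -1, against 2.71% in the rest and 2.4% of all tested protein-coding genes. The 49 members called lower ranged from -1.69 to -0.28 with a median of -0.57, and 13 of them were at least 2-fold lower.

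The interval median was below that of the rest in each class of level, length and base composition. In 3 equal classes of mean CPM, with limits at 8.81 and 38.2 CPM, the interval medians were -0.39, -0.23 and -0.37 from low to high, and those of the rest -0.00, -0.03 and -0.10. In 3 classes of exon length they were -0.29, -0.36 and -0.40 from short to long, beside -0.05, -0.04 and -0.09. Protein-coding members of the interval were poorer in G and C (median 40.6%) than those of the rest (42.6%) and all tested protein-coding genes (47.9%). In 3 classes of that content, with limits at 40.1 and 44.6%, the interval medians were -0.37, -0.41 and -0.50 and those of the rest -0.06, -0.04 and -0.10. Genes on the plus strand had a median of -0.47 in the interval and those on the minus strand -0.37.

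Promoter windows were compared next as a description. The 85 interval protein-coding members with an entry had a median of 64.4% G and C, and the 321 of the rest 64.8%. TATAAA was in 7.06% and 5.92% of them, TGANTCA in 5.88% and 3.43%, and TGACGTCA in 4.71% and 5.92%. GGAATTTCC was in 4 interval windows (4.71%), those of CXCL8, CXCL1, CXCL2 and UTP3, and in 1 of the rest (0.312%), that of NFKB1. This motif was taken from the CXCL8 promoter and CXCL1 and CXCL2 are neighbouring genes of the same family, so the difference in this share is no independent property of the interval. Of these 5 genes CXCL8 and UTP3 fell and the other 3 were not called.

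The counts called in this and the following gene lists stand beside the shares over all genes. Of protein-coding members 47.3% were called lower and 5.49% higher in the interval, and 16.8% and 10.6% in the rest. Over all tested protein-coding genes the shares were 11.4% and 11.5%. No list was tested against these shares. Ligands of the CXC and EGF families moved in both directions. Of the 17 such genes in the interval 6 reached 40 counts (CXCL8, CXCL1, CXCL2, AREG, EREG and BTC), of which 2 fell and 1 rose, with a median of -0.62 beside -0.36 for the whole interval. AREG, a ligand of the EGF receptor (chr4:74445136-74455005), had 27.8 and 27.4 CPM in EGFP positive libraries 1 and 2 and 12.5 and 12.3 CPM in EGFP negative libraries 1 and 2. Its EGFP negative libraries were both low, with no overlap (-1.15 ± 0.14, SE, adjusted p = 4.5e-05).

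CXCL8, the chemokine interleukin 8 that draws neutrophils (chr4:73740541-73743716), had 8.74 and 9.46 CPM in EGFP positive and 3.86 and 5.06 CPM in EGFP negative libraries. These did not overlap either (-1.03 ± 0.22, SE, adjusted p = 0.0048). EREG, which lies between CXCL8 and AREG and also binds the EGF receptor (chr4:74365145-74388749), had the opposite order, 3.89 and 5.12 CPM against 8.03 and 8.14 CPM. It rose (0.84 ± 0.23, SE, adjusted p = 0.018), but lost its call without EGFP positive library 1 (0.66, adjusted p = 0.23).

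BTC had 0.952 and 0.608 against 1.45 and 1.8 CPM, and was not called (1.04, adjusted p = 0.14). CXCL1 (1.99 and 1.48 against 0.964 and 1.54 CPM) and CXCL2 (1.21 and 1.22 against 0.723 and 0.686 CPM), chemokines that share receptors with CXCL8, were not called, with adjusted p of 0.5 and 0.3. EGF itself lies outside the interval and rose from 0.865 and 2.26 to 3.53 and 4.2 CPM (1.30, adjusted p = 0.031), but not without EGFP positive library 1 (0.77, adjusted p = 0.35).

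**Figure D4:**
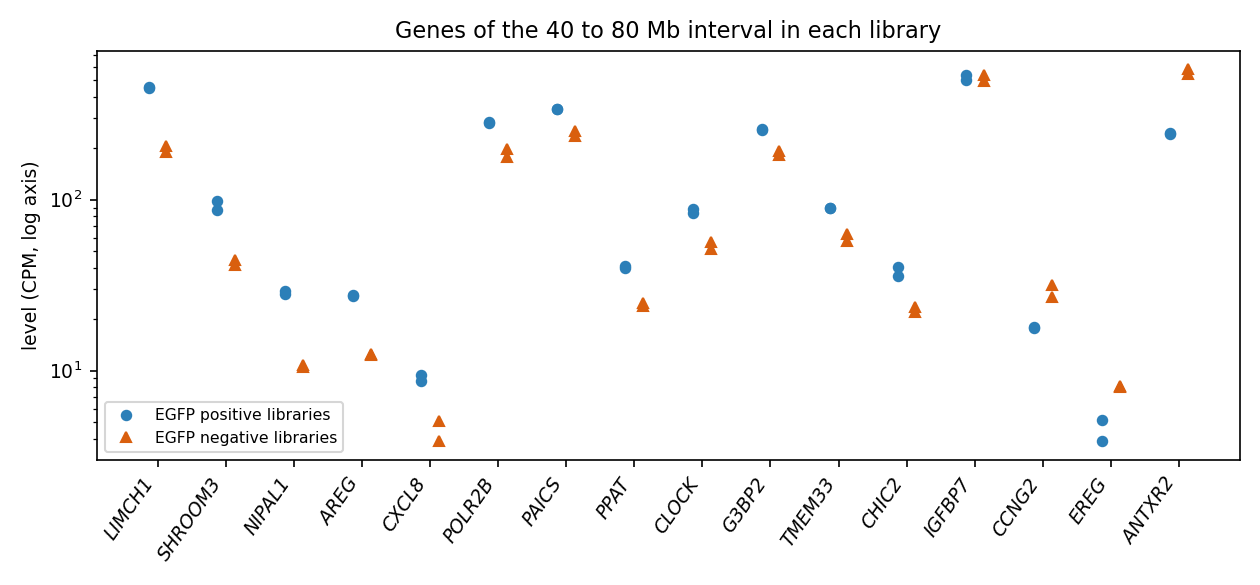
Each point is the level of a gene in 1 library, in CPM on a log axis (y axis), for 16 genes of the 40 to 80 Mb interval (x axis), with circles for EGFP positive and triangles for EGFP negative libraries. In LIMCH1 to CHIC2 both triangles lie under both circles, in IGFBP7 they overlap (533 and 502 against 540 and 494 CPM), and in CCNG2, EREG and ANTXR2 they lie above.

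Among receptor kinases and growth factor genes 6 members lay in the interval, of which 3 fell (2 to 4 with 1 library left out) and 0 rose, with a median of -0.47. The rest of the chromosome had 11, with 3 lower, 1 higher and a median of -0.21. Among all protein-coding members 47.3% were called lower in the interval and 16.8% in the rest. EPHA5, a receptor for ephrins (chr4:65319563-65670495), fell from 6.57 and 6.77 to 3.13 and 3.17 CPM (-1.08 ± 0.24, SE, adjusted p = 0.0063), and it shares exon bases with its antisense gene. TXK, a cytoplasmic tyrosine kinase of the TEC family, fell from 6.49 and 7.03 to 2.41 and 3 CPM (-1.32 ± 0.26, SE, adjusted p = 0.0023). In both genes the groups were apart.

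KDR, the VEGF receptor that is also an endothelial marker, had 13.1 and 13.3 against 10.5 and 8.06 CPM and was not called (-0.51, adjusted p = 0.067), though it was without EGFP negative library 1 (-0.72, adjusted p = 0.0035). IGFBP7, a secreted protein that binds insulin-like growth factors (chr4:57030773-57110385), had the highest level per exon length among protein-coding members of the interval. It had 533 and 502 CPM in EGFP positive and 540 and 494 CPM in EGFP negative libraries, which overlapped (-0.00 ± 0.08, SE, adjusted p = 0.99). Its neighbour POLR2B, with which it shares exon bases, fell. In the rest, the growth factors FGF5 (-0.81) and VEGFC (-0.53) and the hedgehog-binding protein HHIP (-2.12) fell, and SPRY1, an inhibitor of receptor kinase signalling, rose (0.61).

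Genes of matrix, adhesion and cytoskeleton had similar medians inside and outside the interval. In the interval 10 were members, with 6 lower (4 to 7 with 1 library left out), 0 higher and a median of -0.38. In the rest 20 were, with 10 lower (6 to 12), 2 higher and a median of -0.35. Among all protein-coding members 47.3% were called lower in the interval and 16.8% in the rest. LIMCH1, an actin-associated activator of non-muscle myosin (chr4:41359607-41700044), had 453 and 457 CPM in EGFP positive and 191 and 205 CPM in EGFP negative libraries. Both EGFP negative libraries were more than 2-fold lower, and it had the smallest adjusted p of the interval members called lower (-1.20 ± 0.08, SE, adjusted p = 1.5e-07).

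SHROOM3, an actin-binding protein that shapes epithelial cells (chr4:76435229-76783253), had 87 and 97.7 against 44.4 and 41.4 CPM (-1.11 ± 0.10, SE, adjusted p = 4.2e-06). Again the groups were apart, and the gene shares exon bases with an antisense gene. SLAIN2, which promotes microtubule growth, fell from 109 and 110 to 75.8 and 71.7 CPM (-0.57, adjusted p = 0.00048). FRAS1, a basement membrane protein, fell from 116 and 115 to 80.2 and 65.3 CPM (-0.67, adjusted p = 0.00046).

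ANXA3, a calcium-dependent phospholipid-binding annexin with the second highest level per exon length among protein-coding members there, fell from 240 and 238 to 171 and 192 CPM (-0.40, adjusted p = 0.0044). Its call was lost without EGFP positive library 1 (adjusted p = 0.085) or 2 (0.073). In the rest of the chromosome the axon guidance ligand SLIT2 fell from 87.5 and 82.5 to 34.9 and 36.6 CPM (-1.25, adjusted p = 1.1e-06). The actin-organizing proteins PALLD (259 and 269 to 162 and 165 CPM, -0.69) and PDLIM5 (345 and 337 to 206 and 219 CPM, -0.68) also fell there.

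Genes of RNA processing and translation numbered 11 in the interval, of which 8 fell and 0 rose, with a median of -0.38. Without EGFP positive library 1 or 2, 2 or 3 of them were called lower. Of 21 in the rest 3 fell (1 to 7 with 1 library left out) and 0 rose, with a median of -0.14. Among all protein-coding members 47.3% were called lower in the interval and 16.8% in the rest. POLR2B, the subunit of RNA polymerase II named above (chr4:56977742-57031158), had 280 and 284 CPM in EGFP positive and 178 and 197 CPM in EGFP negative libraries, with no overlap (-0.59 ± 0.08, SE, adjusted p = 0.00019). G3BP2, a stress granule RNA-binding protein (chr4:75641849-75724589), had 257 and 258 against 183 and 193 CPM, also with no overlap (-0.46 ± 0.08, SE, adjusted p = 0.001). G3BP2 shares exon bases with USO1, a tether of vesicles at the Golgi, which fell as well (110 and 111 to 70.6 and 89.4 CPM, -0.47).

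UTP3, a factor of ribosomal RNA processing, fell from 75.4 and 69.2 to 51.7 and 51.6 CPM (-0.49, adjusted p = 0.003), and lost its call without EGFP positive library 1 (-0.42, adjusted p = 0.1). The ribosomal protein gene RPL9, just left of the interval at 39.46 Mb, fell from 63.2 and 57.5 to 34.9 and 35.2 CPM (-0.78, adjusted p = 0.00013). DANCR, a long noncoding RNA, fell from 54.6 and 54.2 to 33.8 and 34.5 CPM (-0.67, adjusted p = 0.00042). It shares exon bases with a gene that has no symbol.

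Of the mitochondrial and metabolic genes in the interval 5 of 13 fell (3 to 7 with 1 library left out) and 0 rose, with a median of -0.44. In the rest 3 of 29 fell (2 to 5) and 6 rose (1 to 8), with a median of -0.03. Among all protein-coding members 47.3% were called lower in the interval, and 16.8% lower and 10.6% higher in the rest. PPAT and PAICS, which encode enzymes of purine synthesis and lie head to head, fell together. PPAT (chr4:56393362-56435615) had 40.9 and 40 against 23.9 and 24.8 CPM (-0.73 ± 0.11, SE, adjusted p = 0.00044), and PAICS (chr4:56435741-56464578) had 338 and 341 against 236 and 252 CPM (-0.48 ± 0.08, SE, adjusted p = 0.00068). The groups were apart in both. In the rest PGM2, a phosphoglucomutase at 37.84 Mb, fell (-0.82) and UGT8, which makes galactosylceramide, rose (0.85).

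Genes of chromosome segregation, chromatin and cell cycle in the interval were 12, of which 6 fell and 1 rose, with a median of -0.34. Without EGFP positive library 1 or 2, 2 or 1 of them were called lower. The rest had 32, with 4 lower (2 to 11 with 1 library left out), 0 higher and a median of -0.08. Among all protein-coding members 47.3% were called lower in the interval and 16.8% in the rest. CLOCK, a transcription factor of the circadian clock (chr4:55427903-55546909), had 83.5 and 87.7 against 56.6 and 51.8 CPM, with no overlap (-0.66 ± 0.10, SE, adjusted p = 0.00028). CCNG2, an unusual cyclin linked to cell cycle arrest (chr4:77157207-77170060), had 18 and 17.7 against 31.7 and 26.9 CPM, both EGFP negative libraries being higher (0.72 ± 0.13, SE, adjusted p = 0.0019). Outside the interval RNF4, a SUMO-targeted ubiquitin ligase, fell (-0.48), as did TBC1D1, a GTPase-activating protein at 38.02 Mb (-0.52).

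Among genes of membrane traffic, ubiquitin and protein turnover 18 were members in the interval, with 9 lower (7 to 13 with 1 library left out), 2 higher (0 to 2) and a median of -0.42. The rest also had 18, with 3 lower (1 to 5), 3 higher (1 to 4) and a median of -0.06. Among all protein-coding members 47.3% were called lower in the interval and 16.8% in the rest. TMEM33, an endoplasmic reticulum membrane protein, had 89.8 and 89 against 62.7 and 57.5 CPM (-0.57 ± 0.09, SE, adjusted p = 0.00072). CHIC2, a palmitoylated vesicle protein, had 35.9 and 40.5 against 23.5 and 21.9 CPM (-0.75 ± 0.12, SE, adjusted p = 0.00064). In both genes the EGFP negative libraries were low with no overlap.

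ATP10D, a phospholipid flippase, fell from 70.6 and 68.8 to 44.5 and 46.4 CPM (-0.62, adjusted p = 0.00051). TMEM165, a Golgi protein needed for glycosylation, fell from 116 and 117 to 83.1 and 79.3 CPM (-0.52, adjusted p = 0.00085). SCFD2, of the Sec1 family, fell from 28 and 31.2 to 18.6 and 17.3 CPM (-0.72, adjusted p = 0.0015). NFXL1 fell as well (24.7 and 29.2 to 17.4 and 16 CPM, -0.69), but not without EGFP positive library 2 (-0.57, adjusted p = 0.078).

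Of 38 genes of the interval known for expression in nerve, liver, salivary or milk-making tissue, 2 were members. CNGA1, a channel subunit of photoreceptors, had 3.2 and 2.86 against 0.884 and 1.2 CPM and fell (-1.54 ± 0.38, SE, adjusted p = 0.011), but lost its call without EGFP positive library 1 (-1.45, adjusted p = 0.078). NMU, the second, was not called (0.09). None of the 3 interferon, Toll-like receptor and inflammatory genes of the list in the interval reached 40 counts, and the 19 in the rest had a median of 0.13 (-0.02 to 0.08 with 1 library left out) with 3 higher and 3 lower. Of these PLAC8 (-0.78) and DDX60L (-0.49) fell and CASP6 (0.44) and TLR3 (0.76) rose. Among all protein-coding members of the rest 16.8% were called lower and 10.6% higher. Without EGFP positive library 1 the adjusted p was 0.16 for DDX60L, 0.16 for CASP6 and 0.23 for TLR3. CASP6 and TLR3 also lost their calls without EGFP positive library 2 (0.19 and 0.16), CASP6 without EGFP negative library 2 (0.094) and TLR3 without EGFP negative library 1 (0.06).

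Members that start head to head were counted next. On the whole chromosome 24 pairs of protein-coding members start less than 1000 bases apart on opposite strands, 4 of them in the interval. In all 4 both genes were below 0, and in 3 both were called lower (2 without EGFP positive library 1 or 2), in a stretch where 47.3% of protein-coding members were called lower. Over the 688 such pairs of tested protein-coding genes on all chromosomes, 31.4% had both below 0 and 1.16% both called lower. Among the 20 pairs of the rest 9 had both genes below 0 and 0 had both called lower. NIPAL1, a magnesium transporter (chr4:48016772-48040173), had 27.9 and 29.4 against 10.8 and 10.5 CPM (-1.42 ± 0.14, SE, adjusted p = 8e-06), beside CNGA1 at -1.54. NOA1, a GTPase of mitochondria beside POLR2B, had 47.6 and 51.7 against 35.3 and 31.9 CPM (-0.56, adjusted p = 0.0025), and its adjusted p without EGFP positive library 2 was 0.054. RCHY1, a ubiquitin ligase that targets p53, fell from 45.9 and 38.7 to 24.9 and 27.6 CPM (-0.69, adjusted p = 0.0013), and its partner THAP6 (15.4 and 12.7 against 10.5 and 11.1 CPM) was not called (-0.37, adjusted p = 0.15). The sequences between 3 of these pairs are printed above.

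The 7 interval members called higher were OCIAD2 (0.42), LNX1 (1.47), EREG, CCNG2 and ANTXR2 and the pseudogenes MT2P1 (0.92) and HMGA1P2 (0.37). ANTXR2, an anthrax toxin receptor that binds matrix proteins (chr4:79901146-80073472), had 244 and 241 CPM in EGFP positive and 544 and 579 CPM in EGFP negative libraries. Both EGFP negative libraries were more than 2-fold higher (1.21 ± 0.08, SE, adjusted p = 1.1e-07), and the gene is the last of the interval, at 79.99 Mb.

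OCIAD2 rose from 47.1 and 41.1 to 59.9 and 57.7 CPM, but not without EGFP positive library 2 (0.32, adjusted p = 0.3). MT2P1, a metallothionein copy, had 33.2 and 28.6 against 78.5 and 38.3 CPM, so that EGFP negative library 1 stood far above the other 3, and it was not called with DESeq2 (adjusted p = 0.26). LNX1, a ubiquitin ligase, had 0.865 and 0.521 against 2.41 and 1.46 CPM, and its call was lost without EGFP positive library 1 (adjusted p = 0.082) or 2 (0.32) or EGFP negative library 1 (0.17). HMGA1P2 had 68.3 and 72 against 81.5 and 99.7 CPM and lost its call without EGFP positive library 1 (adjusted p = 0.24) or 2 (0.12). CCNG2, MT2P1 and ANTXR2 kept a call with any 1 library left out, but the value of MT2P1 was 0.31 without EGFP negative library 1 and 1.35 without EGFP negative library 2.

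Other pseudogenes of the interval had high levels per exon length. RPL6P10, a copy of a ribosomal protein gene, fell from 307 and 315 to 243 and 247 CPM (-0.35, adjusted p = 0.0059), and not without EGFP positive library 1 (0.11) or 2 (0.19). RAC1P2 had 168 and 166 against 146 and 147 CPM and was not called (-0.19, adjusted p = 0.13), though it was without EGFP negative library 2 (adjusted p = 0.045). IFITM3P1 fell from 7.79 and 8.77 to 2.97 and 4.97 CPM (-1.06, adjusted p = 0.01), and its adjusted p without EGFP positive library 2 was 0.051. Their reads could not be told apart from those of the genes they copy where the sequence is the same. Of those genes RPL6 fell (-0.30, adjusted p = 0.013), and RAC1 (-0.05) and IFITM3 (0.32) were not called. HMGA1, for which HMGA1P2 above is named, rose (0.48, adjusted p = 0.00077).

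Outside the interval changes in both directions lay side by side, and the largest were single genes. MARCHF1, a membrane ubiquitin ligase, fell from 12.1 and 14.1 to 2.81 and 2.31 CPM (-2.35 ± 0.22, SE, adjusted p = 6.1e-06). HHIP fell from 37.4 and 37.7 to 9.72 and 7.54 CPM (-2.12 ± 0.15, SE, adjusted p = 2.9e-07), and shares exon bases with its antisense gene. PPP2R2C, a regulatory subunit of protein phosphatase 2A, rose from 3.89 and 4.25 to 29.6 and 27.3 CPM (2.80 ± 0.17, SE, adjusted p = 6.1e-08). The groups of these 3 genes were far apart.

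Left of the interval, from 37 to 40 Mb, lay further genes that fell. C4orf19, which shares exon bases with RELL1, fell from 32.2 and 33.5 to 9.24 and 11.1 CPM (-1.70), and TMEM156 from 36.6 and 37.8 to 12.9 and 16.9 CPM (-1.32). KLHL5, a kelch-like adaptor, fell from 175 and 179 to 91.7 and 114 CPM (-0.79). UBE2K, a ubiquitin-conjugating enzyme, fell from 139 and 141 to 106 and 111 CPM (-0.37), and lost its call without EGFP positive library 1 (adjusted p = 0.11) or 2 (0.16). These genes belong to the same stretch as RPL9, PGM2 and TBC1D1.

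NAT8L, an enzyme that makes N-acetylaspartate, fell at 2.06 Mb from 13.1 and 8.16 to 3.86 and 2.66 CPM (-1.70, adjusted p = 0.00062). The genes that rose in the rest included SOD3, the extracellular superoxide dismutase (10.4 and 10.6 to 25.8 and 19.5 CPM, 1.11), CPE, a carboxypeptidase of prohormones (14.3 and 13.4 to 28.5 and 29.5 CPM, 1.07), and SPOCK3, a matrix proteoglycan (2.34 and 2.34 to 5.54 and 6.34 CPM, 1.34). MAML3, a coactivator of Notch signalling, rose from 11.1 and 9.55 to 19.7 and 20.1 CPM (0.95), and the pseudogene PSME2P3 from 3.81 and 3.82 to 10.3 and 6.86 CPM (1.17). ENSG00000249056 fell (-1.30), but not without EGFP positive library 2 (-1.12, adjusted p = 0.1). The largest gap between members of the chromosome, 5.08 Mb between C4orf33 and PABPC4L, lay outside the interval. None of the 3 members on either side of it was called (JADE1 -0.17, SCLT1 -0.23, C4orf33 -0.56, PABPC4L -0.10, ENSG00000241411 -0.50 and EEF1A1P35 0.13), though C4orf33 was without EGFP negative library 2 (-0.86, adjusted p = 0.00044).

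By the median of all tested genes, chromosome 4 (-0.10) was the second lowest of chromosomes 1 to 22 and X, after chromosome 18 (-0.18). Chromosome X had the same rounded median (-0.10). Over protein-coding genes the median of chromosome X (-0.12) was below that of chromosome 4 (-0.10). The first 60 Mb of chromosome 12, another stretch with a common direction, had a median of 0.29 over 453 tested genes, with 154 higher and 15 lower. Chromosome 18 had 48 lower and 8 higher of 235. The interval of chromosome 4 had the largest share of calls in its main direction of these 3 stretches (38.9% lower, against 34% higher and 20.4% lower). The 3 stretches were chosen with these values known, and the differences between them were not tested.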

How the data were processed

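Raw counts per gene name were deposited for each of the 4 libraries (61471 rows). They were made, per the file headers, with featureCounts 2.0.1 on exons of the GENCODE 46 basic annotation without a strand option, so reads of overlapping genes on opposite strands could not be told apart (179 of 643 members share exon bases). No aligner is named in the sources used here. The submitters' processing notes name Subread and the builds GRCh37 and hg19. The coordinates in the tables are those of GRCh38: 720 of 726 protein-coding genes of chromosome 4 (99.2%) lay within 5000 bp of GENCODE 29. Gene types came from GENCODE 29 and RefSeq (598 of 643 members), and 11 rows with entries on chromosome 4 and another chromosome were no members.

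Genes passing edgeR's filterByExpr (minimum count 10, minimum total 15) were fitted over all 4 libraries by edgeR 4.0.16 (R 4.3.3; TMM scaling, quasi-likelihood, no term but group). P-values were adjusted by Benjamini-Hochberg over all 16413 genes, with a threshold of 0.05. The biological coefficient of variation was 7.52%. The SE is the log2 fold change divided by the root of F. An exact permutation of 2 against 2 libraries cannot go below a two-sided p of 0.33. CPM values were computed here, as was log2 CPM with a prior count of 2. On simulated data for this comparison with 16413 genes, 55.2% of 1.5-fold, 82.1% of 2-fold and 97% of 4-fold changes were called, with 5 false among 161 calls. The simulation gave all genes and both groups the same dispersion and changed 67, 67 and 66 genes by these folds. In the data 3095 genes were called and the spread differed between groups, so these shares may not hold there. Replicates differed by more than sampling noise (chi-square per degree of freedom 2.07 and 6.23), so none was counted as a duplicate.

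The members, the interval and the gene lists were chosen with earlier results of these data known. Named genes are, by rule, the 12 largest falls and 8 largest rises of the interval with at least 5 CPM in the higher group, 6 each way in the rest, up to 4 called genes of each list, 3 members on each side of the limits and of the largest gap, the 5 highest levels per exon length and the rows at the count threshold. A further 17 genes, among them KDR, DANCR, RCHY1, PDLIM5 and KLHL5, were chosen after their values were seen. The values of genes and windows were recomputed with RLE or upper-quartile scaling, without a filter, with a stricter one (1 CPM in 2 libraries and 100 summed counts), DESeq2 1.42.0, limma-voom (limma 3.58.1), a replicate block, each library left out, and corrections by exon length and by GC content and length. The last was chosen after seeing the data and covered 85.7% of tested genes. Promoter windows are the first RefSeq entry of a gene (428 of 643 members). The result of 1 marker list is not reported here.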

Additional observations from a re-analysis of the deposited data

How the results depend on the processing

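The median log2 fold change of the interval stayed between -0.41 and -0.29 and that of the rest between -0.09 and -0.04 under all alternatives. These moves were smaller than the spread between libraries (SD 0.081 and 0.044). For the fits with 1 library left out this says little, since the SD comes from the same differences between libraries. Counts of calls moved more. With DESeq2 4 interval members were called higher and, in the rest, 28. Leaving out 1 library in turn gave 26 to 61 lower and 4 to 8 higher in the interval, and in the rest 34 to 108 lower and 21 to 63 higher. Interval members sharing no exon base with another gene name were 92, of which 30 were called lower. With the replicate block, tried because the labels number both groups, 101 members of the rest were called lower. Of all tested genes 2407 were then called lower, against 1552 without the block. The correlation of same-numbered deviations was 0.114, which with 2 pairs does not establish pairing. Of the 49 lower calls in the interval 29 and 26 were kept without EGFP positive library 1 and 2 and 36 with DESeq2, and all 49 stayed below 0 in each fit that tested them (45 were tested with the stricter filter).

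None of the 170 called members of chromosome 4 turned sign in any fit that tested it. Among named genes, those whose sign turned were not called with all 4 libraries: IGFBP7 with RLE factors (0.00), upper-quartile scaling (0.01), DESeq2 (0.00), and -0.07 to 0.07 with 1 library left out in turn. The same range was -0.42 to 0.24 for ENSG00000249863, -0.45 to 0.04 for KPNA2P1, -0.70 to 0.53 for KRT18P25, -0.21 to 0.03 for PABPC4L, -0.09 to 0.33 for EEF1A1P35 and -0.59 to 0.33 for ENSG00000250568. The cause was not tested. With 11445076 to 12635576 counts a library and 2 libraries a group, 55.2% of simulated 1.5-fold changes were called. That simulation used the same dispersion for all genes, and the share found in the data themselves was not tested.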
